A study of Mus musculus with 8 samples.

Results

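The 8 genes Pax2, Pax8, Lhx1, Emx2, Gata3, Eya2, Irx1 and Hnf4a are grouped here as nephron and collecting duct transcription factors. They were followed in mouse kidney epithelial cells null or heterozygous for Pkd1. They were chosen by name, with earlier results of these data known. Each was matched by its Entrez gene ID to 1 of the 18631 genes in the expression files. Poly(A) RNA was sequenced from 8 libraries in 4 groups of 2. The null cells (Pkd1-/-, line PN) were treated for 6 h with 50 nM THZ1, which blocks the kinase CDK7 covalently, or with its solvent DMSO. The heterozygous cells (Pkd1+/-, line PH) received the same THZ1 dose and time, or DMSO. Both lines were grown in DMEM-F12 with T3, IFNγ, insulin-transferrin-selenium and 3% serum. Each genotype is 1 cell line, so an effect of the Pkd1 genotype cannot be told apart from any other way in which PN and PH differ. The labels do not say that replicates came from separate cultures, so p-values measure the spread between these libraries, which may be technical.

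Pax2 and Pax8 are paired box factors that act together to set up the nephric lineage in the mouse embryo, and both stay on in tubule and duct epithelium. Below them, Lhx1 and Emx2 are homeobox factors needed for the nephric duct and the ureteric bud. Gata3 is a zinc finger factor of the duct that lies downstream of Pax2 and Pax8 and keeps the receptor gene Ret on. Eya2 belongs to the eyes absent family, phosphatases that bind homeobox factors of the sine oculis family and switch on their targets. Irx1 is an Iroquois homeobox factor of middle nephron segments, and Hnf4a is a nuclear receptor needed for proximal tubule differentiation.

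Values are FPKM, fragments normalised for transcript length and library depth, so levels of different genes can be set side by side. They are relative to the fragments of each library, so falls and rises below are relative too. A change of total RNA per cell with THZ1 would not show in them. Differences are on the log2(FPKM + 1) scale, and a gene was called when its limma adjusted p was below 0.05 over all 10731 genes with a mean of at least 1 FPKM. Of the 8 factors, 6 passed this limit, and Hnf4a and Lhx1 did not.

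The deposited tables held 14007 to 15439 genes above 0 per library, and the steps of low values gave an estimated depth of 17.3 to 18.3 M fragments. Null THZ1 replicate 2 and null DMSO replicate 1 stood apart with 3129 and 3378 genes between 0.01 and 0.2 FPKM, against 2230 to 2586 in the other libraries. Leaving out either changed no call of Pax2, Pax8, Emx2 or Eya2, and the calls of Irx1 and Gata3 that it changed are given beside those genes. Pkd1 RNA, the check of the line labels, had 1.22 and 1.21 FPKM in null THZ1, 1.69 and 1.32 in null DMSO, 3.71 and 4.20 in heterozygous THZ1 and 4.58 and 5.30 in heterozygous DMSO libraries. It was lower in null cells under DMSO (log2 difference -1.25 ± 0.10 SE, limma adjusted p = 1.99e-07). The epithelial label held for Cdh16, Krt8, Krt18, Krt19 and Ezr, with Krt8 at 178 to 339 FPKM, but Cdh1 and Epcam stayed at or under 0.42 FPKM. Segment marker lists were mixed. Of 10 proximal tubule markers 3 had a mean of at least 1 FPKM (Aqp1, Ggt1 and Lrp2), while Slc34a1 did not exceed 0.02. Of 10 collecting duct principal cell markers 2 did, Krt7 with 371 to 406 FPKM in null and 277 to 320 in heterozygous libraries and Hsd11b2 with 2.15 to 3.09 in null and 9.46 to 10.9 in heterozygous libraries, while Aqp2 did not exceed 0.04. None of 7 thick ascending limb markers did, although Umod had 1.62 to 2.25 FPKM in heterozygous libraries and was listed at 0 in null ones. Of the 5 genes of the distal tubule list in the files Trpm7 alone did, at 14.1 to 34.1 FPKM, while Trpm6 did not exceed 0.95 and Slc12a3 0.03. Car2, at 7.69 to 20.1 FPKM, was the one intercalated cell marker of 8 that did. The podocyte list of 6 held Synpo (11.4 to 54.6 FPKM) and Podxl (0.48 to 3.10), with Wt1 listed at 0, and the leukocyte list of 6 held Csf1r (3.41 to 9.68) and Cd68 (1.72 to 4.82), with Adgre1 and Cd3e listed at 0. None of 6 endothelial markers reached the mean of 1 FPKM. Of 8 fibroblast markers, 2 had a mean of at least 1 FPKM, and the list summed to 39.9 to 43.0 FPKM in null THZ1, 33.7 in both null DMSO, 15.3 to 15.4 in heterozygous THZ1 and 15.5 to 16.6 in heterozygous DMSO libraries. Col1a1 made up much of that difference. Postn, the other of the 2, had 15.34 to 18.15 FPKM in null and 11.15 to 12.87 in heterozygous libraries. Pdgfra, Col1a2, Col3a1 and Lum were near 0, and the part of these markers in the results below was not tested.

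The promoters of Pax8, Pax2 and Emx2 are shown because these genes fell with THZ1 in null cells, and that of Gata3 because it rose there. They come from the RefSeq table of GRCm38.p6, run 5′ to 3′ on the gene's strand from 250 bases before to 50 after an annotated start. Capitals mark a CCAAT box. For Pax2 and Gata3 the printed window lies inside the gene's span given below, away from its 5′ end. The windows are chr2:24475550-24475849 on the minus strand for Pax8, chr19:59458440-59458739 on the plus strand for Emx2, chr19:44756656-44756955 on the plus strand for Pax2 (the most CpG-rich of its 3 windows) and chr2:9878551-9878850 on the minus strand for Gata3.
Pax8: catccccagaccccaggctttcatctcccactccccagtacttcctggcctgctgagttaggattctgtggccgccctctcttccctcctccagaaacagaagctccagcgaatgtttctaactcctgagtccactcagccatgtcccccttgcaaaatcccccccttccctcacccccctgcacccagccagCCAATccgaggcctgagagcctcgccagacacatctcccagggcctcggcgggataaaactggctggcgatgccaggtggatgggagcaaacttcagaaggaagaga
Emx2: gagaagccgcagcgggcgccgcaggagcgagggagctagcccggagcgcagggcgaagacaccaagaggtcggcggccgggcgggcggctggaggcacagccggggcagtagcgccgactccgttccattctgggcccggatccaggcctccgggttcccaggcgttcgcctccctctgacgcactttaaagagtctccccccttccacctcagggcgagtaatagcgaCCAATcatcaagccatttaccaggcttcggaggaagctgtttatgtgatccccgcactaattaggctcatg
Pax2: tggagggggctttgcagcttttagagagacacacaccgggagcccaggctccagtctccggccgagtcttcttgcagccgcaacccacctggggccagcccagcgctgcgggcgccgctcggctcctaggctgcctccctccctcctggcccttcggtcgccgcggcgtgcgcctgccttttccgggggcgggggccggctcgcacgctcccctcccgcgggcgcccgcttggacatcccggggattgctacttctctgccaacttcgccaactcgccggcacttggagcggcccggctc
Gata3: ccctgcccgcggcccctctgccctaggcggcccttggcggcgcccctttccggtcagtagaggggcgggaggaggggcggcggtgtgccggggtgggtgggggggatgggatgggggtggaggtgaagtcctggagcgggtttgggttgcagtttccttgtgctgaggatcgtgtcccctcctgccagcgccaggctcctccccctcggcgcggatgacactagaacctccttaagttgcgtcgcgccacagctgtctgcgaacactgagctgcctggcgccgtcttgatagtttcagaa
The table held windows for 6 of the 8 factors, and none for Eya2 and Irx1. Searches on both strands covered TATAAA (the TATA box), CCAAT (bound by NF-Y), GTTAAT (a homeobox factor site), CAAAGTC (part of the HNF4 site), AGATAA (bound by GATA factors), TGACGTC (part of the cAMP response element), CACGTG (E box) and GCGTGAC (a Pax2 and Pax8 core). Of these 8 motifs, the 4 printed windows held only CCAAT, in Pax8 at position -57 and in Emx2 at -21 from the start. CCAAT on either strand stood in 37.4% of 32544 promoters of the same length. Of the windows not printed, the second Hnf4a window held GTTAAT at positions -81 and -74, a motif found in 7.13% of promoters. The first Hnf4a window held AGATAA at -52 (11.2% of promoters), and that of Lhx1 held TGACGTC at -50 (3.22%). Both Hnf4a windows and that of Lhx1 also held CCAAT. The printed windows held 30 CpGs in Pax2, 26 in Emx2, 22 in Gata3 and 7 in Pax8, against a median of 7 over all promoters. The Pax2 count follows from choosing its most CpG-rich window, and its other windows held 7 and 23 CpGs.

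The 8 genes lie on 4 chromosomes in GRCm38. Chromosome 2 carries 4 of them: Gata3 (gene ID 14462, 9857078 to 9887953), Pax8 (18510, 24420551 to 24475599), Hnf4a (15378, 163506811 to 163572907) and Eya2 (14049, 165595028 to 165771727). Eya2 lies 2.02 Mb from Hnf4a and has the longest span of the 8, 177 kb. Chromosome 19 carries Pax2 (18504, 44746601 to 44838269) and Emx2 (13797, 59458690 to 59465357), with Lhx1 (16869, 84517975 to 84525534) on chromosome 11 and Irx1 (16371, 71958232 to 71963723) on chromosome 13. Whether the counting used strand is not given, and genes on the other strand overlap 6 of the 8: Gm20395 and 1700039E22Rik overlap Pax2, Hnf4aos overlaps Hnf4a over 34913 bases, Emx2os overlaps Emx2 over 264 bases, Gm13256 and 4930412O13Rik overlap Gata3, Gm13415 overlaps Pax8, and Gm28163 and Gm11460 overlap Eya2. Reads of these partners, and of 9230102O04Rik on the strand of Gata3, cannot be told apart from the genes' own here, and the partners were not analysed here.

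The Pax genes were the most abundant of the 8 in every library. Pax8 had 47.7 and 50.8 FPKM in null THZ1, 77.2 and 77.7 in null DMSO, 83.2 and 84.4 in heterozygous THZ1 and 88.3 and 91.2 in heterozygous DMSO libraries. No groups overlapped, and the null THZ1 libraries stood well below the other 6. Pax2 had 22.69 and 25.03 FPKM in null THZ1, 43.8 and 46.2 in null DMSO, 70.7 and 78.2 in heterozygous THZ1 and 60.5 and 70.9 in heterozygous DMSO libraries. For Pax2 both null groups lay below every heterozygous library, while the heterozygous groups overlapped. By mean level over the 8 libraries, Pax8 was higher than 94.4% of all listed genes and Pax2 higher than 91.1%.

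**Figure D1:**
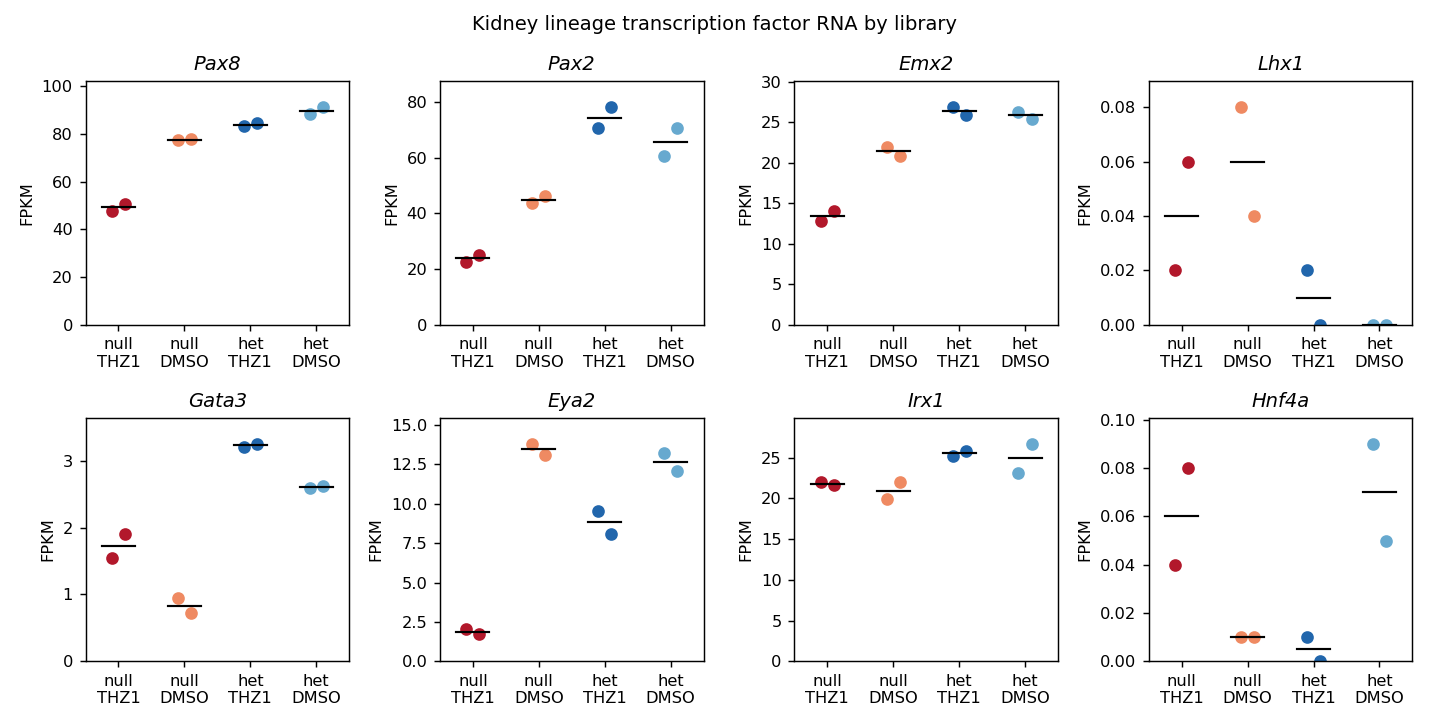
FPKM (vertical axis of each panel, from 0) of the 8 factors in null THZ1, null DMSO, heterozygous THZ1 and heterozygous DMSO cells, with 1 point per library and a bar at the mean of 2. Pax8, Pax2, Emx2 and Eya2 are lowest in null THZ1 cells, Gata3 is lowest in null DMSO cells, Irx1 differs little, and Lhx1 and Hnf4a stay at or under 0.09 FPKM.

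THZ1 lowered both Pax genes in null cells. The mean of Pax8 was 49.2 ± 2.15 FPKM with THZ1, against 77.5 ± 0.368 FPKM with DMSO (SD, n = 2 each), a log2 difference of -0.64 ± 0.04 (SE, limma adjusted p = 3.44e-08). That of Pax2 was 23.9 ± 1.65 FPKM with THZ1, against 45.0 ± 1.66 FPKM with DMSO (SD, n = 2 each), a log2 difference of -0.89 ± 0.07 (SE, limma adjusted p = 2.32e-07). Pax2 had fallen to 0.531 of its DMSO level, against 0.636 for Pax8. In heterozygous cells neither passed the test: Pax8 had -0.10 ± 0.04 (SE, limma adjusted p = 0.123) and Pax2 0.18 ± 0.07 (SE, limma adjusted p = 0.0948). The responses of the lines differed for Pax2 by -1.07 ± 0.10 and for Pax8 by -0.55 ± 0.06 (SE, limma interaction, adjusted p = 3.9e-06 and 1.09e-05). In bulk RNA, fewer cells that express a gene and less RNA per cell cannot be told apart.

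The Pax genes were also lower in null than in heterozygous cells with each treatment. Under DMSO the log2 difference was -0.53 ± 0.07 for Pax2 (SE, limma adjusted p = 2.85e-05) and -0.21 ± 0.04 for Pax8 (limma adjusted p = 0.000778). Under THZ1 it was -1.60 ± 0.07 for Pax2 (limma adjusted p = 4.34e-10) and -0.76 ± 0.04 for Pax8 (limma adjusted p = 3.13e-09). The FPKM of Pax2 divided by that of Pax8 was 0.475 and 0.493 in null THZ1, 0.567 and 0.594 in null DMSO, 0.850 and 0.926 in heterozygous THZ1 and 0.685 and 0.777 in heterozygous DMSO libraries. Pax8 exceeded Pax2 in each of the 8 libraries, and the ratio was lowest in the null THZ1 libraries.

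Emx2 had a profile close to that of Pax8. It had 12.8 and 14.0 FPKM in null THZ1, 22.0 and 20.9 in null DMSO, 26.9 and 25.9 in heterozygous THZ1 and 26.3 and 25.4 in heterozygous DMSO libraries. Both null THZ1 libraries were below all others, null DMSO libraries were below the heterozygous ones, and the heterozygous groups overlapped. Emx2 fell with THZ1 in null cells by 0.64 on the log2 scale (SE 0.06, limma adjusted p = 4.29e-07), while heterozygous cells had 0.03 ± 0.06 (SE, limma adjusted p = 0.745; 95% interval -0.09 to 0.15). The responses differed by -0.67 ± 0.08 (SE, limma interaction adjusted p = 1.99e-05). Null cells had less Emx2 than heterozygous cells, by -0.26 ± 0.06 under DMSO (SE, limma adjusted p = 0.00124) and by -0.93 ± 0.06 under THZ1 (SE, limma adjusted p = 6.18e-09). With each gene's mean taken off, Emx2 and Pax8 differed by a root mean square of 0.08 log2 units over the 8 libraries, the smallest distance among the 15 pairs of tested factors. The next pair, Pax2 and Emx2, stood at 0.27. Genes outside the 8 factors lay closer still, with Crk at 0.02 from Pax8 and Foxred1 at 0.02 from Emx2.

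Lhx1, the other early homeobox factor, was near the limit of detection. It had 0.02 and 0.06 FPKM in null THZ1, 0.08 and 0.04 in null DMSO, 0.02 and 0 in heterozygous THZ1 and 0 in both heterozygous DMSO libraries. Given its longest annotated transcript of 3846 bases, these values correspond to an estimated 0 to 5.5 fragments per library. No fold or test is given for it, since heterozygous DMSO cells were listed at 0 and other libraries held a few fragments at most.

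Gata3 rose with THZ1 in null cells, where both Pax genes fell. It had 1.54 and 1.91 FPKM in null THZ1, 0.95 and 0.72 in null DMSO, 3.21 and 3.25 in heterozygous THZ1 and 2.59 and 2.62 in heterozygous DMSO libraries. None of the 4 groups overlapped, and both THZ1 groups lay above the DMSO group of their line. Gata3 was lower in null than in heterozygous cells by -0.98 ± 0.10 on the log2 scale under DMSO (SE, limma adjusted p = 1.6e-06), and mean FPKM was 0.321 of the heterozygous level. Under THZ1 the difference was -0.64 ± 0.10 (SE, limma adjusted p = 4.61e-05). THZ1 raised Gata3 in null cells by 0.57 ± 0.10 (SE, limma adjusted p = 0.000163), which is 2.07 times the mean FPKM of DMSO cells, while heterozygous cells had 0.23 ± 0.10 (SE, limma adjusted p = 0.11). The difference of responses was 0.34 ± 0.14 (SE), which missed the threshold (limma interaction adjusted p = 0.0507; 0.00743 to 0.173 over 17 alternatives, 7 of them below 0.05). Among these were the fits without null THZ1 replicate 1 (0.44, limma adjusted p = 0.0238) and without null DMSO replicate 1 (0.43, limma adjusted p = 0.0288). At this level the added 1 FPKM shrinks the log2 values: with an added 0.1 the difference of responses was 0.67.

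Eya2 had the steepest response to THZ1 of the 6 tested factors. It had 2.06 and 1.72 FPKM in null THZ1, 13.8 and 13.1 in null DMSO, 9.56 and 8.09 in heterozygous THZ1 and 13.2 and 12.1 in heterozygous DMSO libraries. The DMSO groups of the lines overlapped, heterozygous THZ1 libraries lay below them, and null THZ1 libraries lay far below. In null cells Eya2 averaged 1.89 ± 0.240 FPKM with THZ1 and 13.5 ± 0.481 with DMSO (SD, n = 2 each), so 0.141 of its level was left. This fall of 2.32 log2 units (SE 0.09, limma adjusted p = 4.6e-10) left 9 of the 10731 tested genes with a larger fall. In heterozygous cells Eya2 fell by 0.48 (SE 0.09, limma adjusted p = 0.00368) and kept 0.698 of its DMSO level. The responses differed by -1.85 ± 0.12 (SE, limma interaction adjusted p = 3.5e-07), and 11 tested genes had a more negative difference.

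Eya2 was the exception in the comparison of the DMSO-treated lines. Null minus heterozygous was 0.08 ± 0.09 under DMSO (SE, limma adjusted p = 0.411; 95% interval -0.11 to 0.28) and -1.76 ± 0.09 under THZ1 (SE, limma adjusted p = 9.7e-10). Eya4, of the same family, had 8.29 and 8.61 FPKM in null THZ1, 13.6 and 13.7 in null DMSO, 2.40 and 2.34 in heterozygous THZ1 and 2.82 and 3.01 in heterozygous DMSO libraries. In null THZ1 cells Eya4 thus stood above Eya2, and in heterozygous cells Eya2 stood above Eya4.

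Irx1 varied least, with a ratio of 1.34 between its highest and its lowest library, against 8.02 for Eya2. It had 22.0 and 21.6 FPKM in null THZ1, 19.9 and 22.0 in null DMSO, 25.2 and 25.9 in heterozygous THZ1 and 23.2 and 26.7 in heterozygous DMSO libraries. All 4 null libraries were below all 4 heterozygous ones, and within each line the drug groups overlapped. Null minus heterozygous was -0.24 ± 0.07 under DMSO and -0.22 ± 0.07 under THZ1 (SE, limma adjusted p = 0.00704 and 0.00895). The calls changed with the scaling: dividing by median-of-ratios factors gave values of -0.17 (limma adjusted p = 0.0518, alternatives 0.00112 to 0.0925) and 0.08 (0.306, alternatives 0.0015 to 0.528). The DMSO call was also lost when null DMSO replicate 1 (-0.17, limma adjusted p = 0.0846) or heterozygous DMSO replicate 2 (-0.14, limma adjusted p = 0.0925) was left out. THZ1 minus DMSO was 0.06 ± 0.07 in null and 0.04 ± 0.07 in heterozygous cells (SE, limma adjusted p = 0.472 and 0.732), with 95% intervals of -0.09 to 0.20 and -0.11 to 0.18.

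Hnf4a was near 0 in both lines. It had 0.04 and 0.08 FPKM in null THZ1, 0.01 in both null DMSO, 0.01 and 0 in heterozygous THZ1 and 0.09 and 0.05 in heterozygous DMSO libraries. With its longest transcript of 4362 bases this is an estimated 0 to 7.1 fragments per library, and no fold is given.

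In the comparison of THZ1 with DMSO in null cells, 4 of the 6 tested factors fell (Pax2, Pax8, Emx2 and Eya2), Gata3 rose and Irx1 was not called. Over all tested genes 75.7% were called, 51.1% lower and 24.6% higher. The median log2 difference was -0.64 for the 6 factors and -0.17 for all tested genes. Median-of-ratios scaling moved the median of all genes by 0.20, giving 4363 genes called higher and 3942 lower, against 2645 and 5479 without scaling. Relative to the median of all genes the differences were -2.15 for Eya2, -0.72 for Pax2, -0.47 for Pax8, -0.47 for Emx2, 0.23 for Irx1 and 0.74 for Gata3. The directions of the 5 called factors were the same with each of 3 scalings.

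In heterozygous cells THZ1 changed 1 of the 6 factors, Eya2, against 22.4% of all tested genes called, 12.2% higher and 10.3% lower. Of all genes 1306 were called higher and 1100 lower. Upper quartile scaling gave 1022 higher calls and 1314 lower calls, and equal library totals gave 753 and 1491. The median was 0.03 for the factors and 0.01 for all tested genes. The 95% intervals of Emx2 and Irx1 lay within 0.19 log2 units of 0, so larger responses of these genes lay outside the intervals. Pax2 was called with 0.29 (limma adjusted p = 0.0209, alternatives 0.0176 to 0.582) without heterozygous DMSO replicate 2, and Pax8 with -0.14 (limma adjusted p = 0.0365, alternatives 0.0365 to 0.373) when libraries were scaled to equal totals.

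Between the lines under DMSO, 5 of the 6 factors were lower in null cells and 0 higher, against 70% of all tested genes called, 41% lower and 29% higher. Over all genes 3110 were higher and 4398 lower, while median-of-ratios scaling gave 3717 higher calls with 3694 lower ones, and upper quartile scaling 3646 with 3792. The median was -0.25 for the factors and -0.07 for all tested genes. Under THZ1 all 6 tested factors were lower in null cells, where 83.2% of all tested genes were called, 58.1% lower and 25.1% higher, with medians of -0.84 and -0.28. Over all genes 2689 were higher and 6240 lower, against 4347 and 4410 with median-of-ratios and 3592 and 5124 with upper quartile scaling, which moved the median by 0.28 and 0.16. For the difference between the lines' responses, 4 factors were called negative and 0 positive, where 60.2% of all tested genes were called, 45.1% negative and 15.1% positive. That split, 1620 positive and 4843 negative, was 3475 and 3126 with median-of-ratios and 2467 and 3937 with upper quartile scaling, which moved the median by 0.21 and 0.10. Of the lower calls in null cells, that of Irx1 held in 15 of 18 alternatives under DMSO and 16 of 18 under THZ1. With median-of-ratios scaling its difference under THZ1 was 0.08. These comparisons share libraries, so their counts are not independent of each other.

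**Figure D2:**
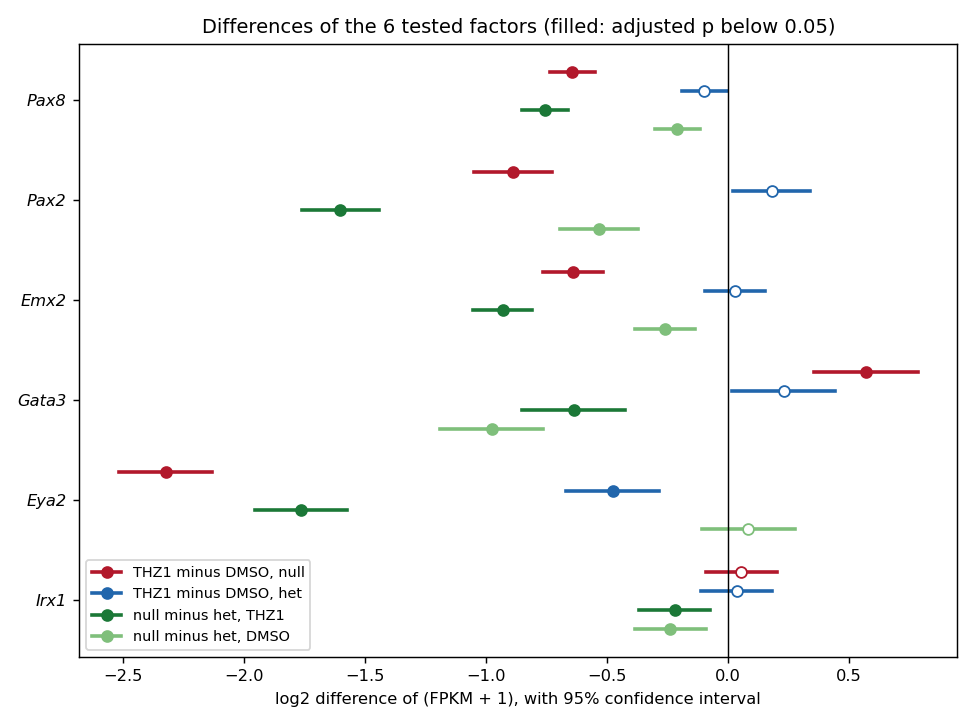
Log2 differences of (FPKM + 1) for the 6 tested factors in 4 comparisons, with 95% confidence intervals that are not adjusted for the number of tests, and filled points where the limma adjusted p was below 0.05. The THZ1 response of null cells lies left of 0 for Pax8, Pax2, Emx2 and Eya2 and right of it for Gata3, and that of heterozygous cells is filled for Eya2 alone.

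Summed over the 8 factors, null THZ1 libraries held 109 and 115 FPKM, null DMSO 178 and 181, heterozygous THZ1 219 and 226 and heterozygous DMSO 214 and 229 FPKM. Pax8 contributed the largest share everywhere, 43.9% and 44.1% of the sum in null THZ1 and 43.4% and 43.0% in null DMSO libraries. Irx1 contributed 20.2% and 18.8% in null THZ1 against 11.2% and 12.2% in null DMSO libraries, with its own level nearly the same. Eya2 contributed 1.89% and 1.49% in null THZ1 against 7.76% and 7.26% in null DMSO libraries. The order Pax8, Pax2 held in every library. Emx2 and Irx1 came next and changed places between replicates of both DMSO groups, so their order there does not exceed the spread, while in both null THZ1 libraries Irx1 was above Emx2. Eya2 was above Gata3 in 7 libraries and below it in null THZ1 replicate 2, at 1.72 and 1.91 FPKM.

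**Figure D3:**
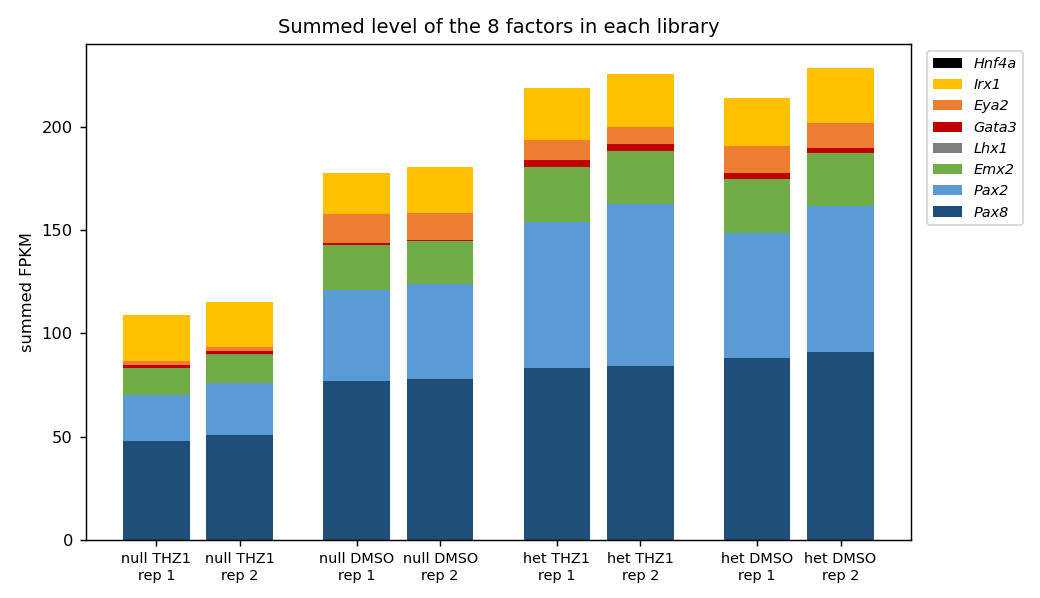
Stacked bars of FPKM (vertical axis) of the 8 factors in each library, from null THZ1 on the left to heterozygous DMSO on the right. The bars of null THZ1 cells reach 109 and 115 FPKM and those of the other 6 libraries 178 to 229, with Pax8 and Pax2 as the lowest and largest blocks in every bar.

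For each tested factor, the 2 genes with the most similar profile were found by the root mean square difference of centred log2(FPKM + 1) over the 8 libraries. They were Crk (0.02) and Grk6 (0.03) for Pax8, Plekhh3 (0.07) and Cutc (0.08) for Pax2, and Foxred1 (0.02) and Synrg (0.04) for Emx2. For Gata3 they were Hmgn5 (0.07) and Gclc (0.08), for Irx1 Eif4ebp1 (0.04) and Spint2 (0.04), and for Eya2 Nmnat3 (0.06) and Klhdc7a (0.14). Nmnat3, for example, had 0.79 and 0.65 FPKM in null THZ1 and 8.46 and 7.76 in null DMSO libraries. None of these 12 genes belongs to the lists of kidney factors.

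Of 30 other kidney transcription factors, 19 passed the limit of 1 FPKM. For THZ1 in null cells 8 of the 19 fell and 2 rose (median -0.09), where 51.1% of all tested genes fell and 24.6% rose. Between the lines under DMSO null cells had 12 lower and 5 higher (median -0.28), where 41% of all tested genes were lower and 29% higher. Hoxb7, a collecting duct homeobox gene, rose in both lines, to 83.9 and 75.6 FPKM in null THZ1 against 41.6 and 42.0 in null DMSO, and to 53.5 and 56.4 in heterozygous THZ1 against 38.3 and 43.7 in heterozygous DMSO libraries.

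Several of the remaining named factors differed between the lines. Foxd1, a factor of kidney stroma, had 2.79 to 3.28 FPKM in null libraries and was listed at 0 in all 4 heterozygous ones, so it passed the limit through null cells alone. Gata4 had 0.07 to 0.11 FPKM in null and 6.23 to 8.08 in heterozygous libraries, the reverse. Hes1, a Notch target, was lower in null cells under DMSO by -0.95 ± 0.05 (SE, limma adjusted p = 1.96e-09). Irx3 had 2.11 to 3.71 FPKM in null and 0.39 to 0.60 in heterozygous libraries, so it too passed the limit through null cells alone. Irx2, also of the Iroquois family, fell with THZ1 in null cells by 0.40 (SE 0.06, limma adjusted p = 2.62e-05), where Irx1 was not called. Bnc2 fell with THZ1 in null cells by 0.28 (SE 0.09, limma adjusted p = 0.00923) and in heterozygous cells by 0.36 (SE 0.09, limma adjusted p = 0.0124). The first call was lost with median-of-ratios scaling and without null DMSO replicate 2, and the second without heterozygous THZ1 replicate 1, THZ1 replicate 2 or DMSO replicate 1. Of 29 paralogs of the 8 factors, 5 passed the limit, of which 3 fell and 0 rose with THZ1 in null cells, near the 51.1% of all tested genes that fell.

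Of 8 sine oculis homeobox and Dach genes, whose products act with the Eya family, 3 passed the limit, and with THZ1 in null cells 2 fell, Six5 among them, and Six4 rose, where 75.7% of all tested genes were called. Six5 had 0.79 and 0.67 FPKM in null THZ1 against 4.69 and 5.26 in null DMSO, and 3.10 and 3.26 in heterozygous THZ1 against 4.03 and 4.68 in heterozygous DMSO libraries. The log2 difference of Six5 in null cells was -1.79 ± 0.09 (SE, limma adjusted p = 4.11e-09). For Six4, with 0.21 ± 0.09 (SE, limma adjusted p = 0.0431), the call was lost in 10 of 18 alternatives. In heterozygous cells Six5 alone was called lower (-0.36 ± 0.09 SE, limma adjusted p = 0.0172). That call was lost with no filter on low values and without THZ1 replicate 1, THZ1 replicate 2 or DMSO replicate 2.

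**Figure D4:**
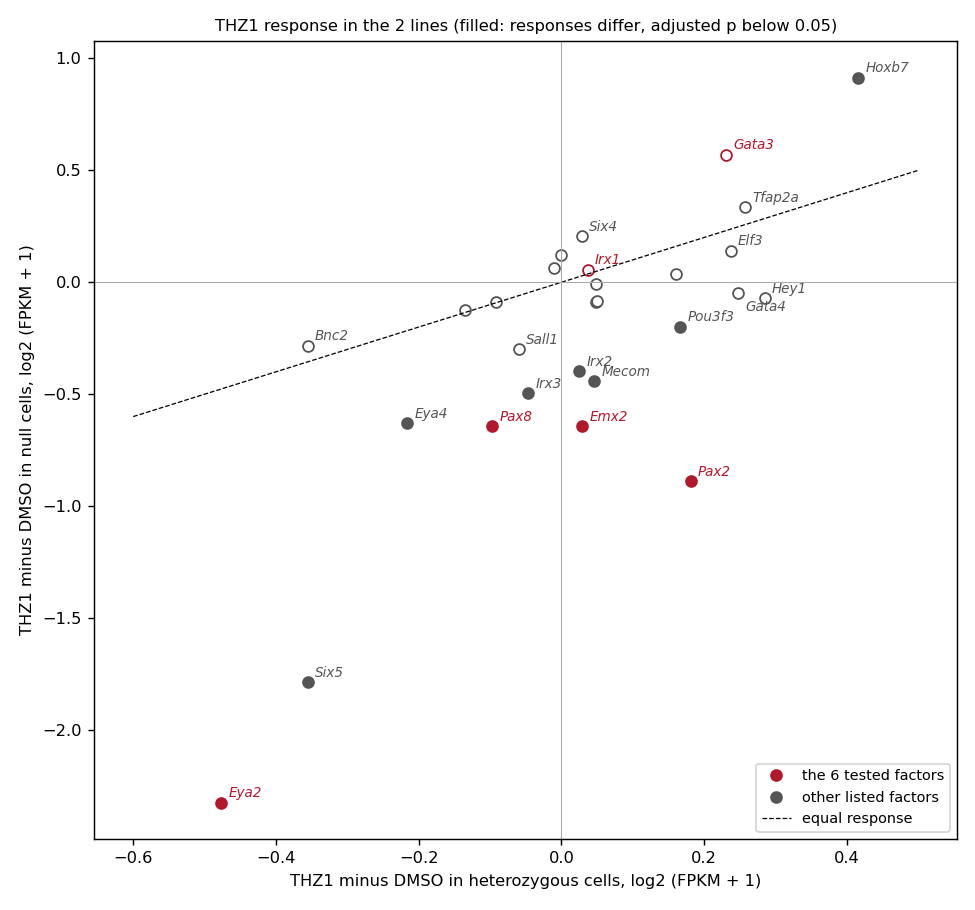
Log2 difference of (FPKM + 1) between THZ1 and DMSO in null cells (vertical axis) against heterozygous cells (horizontal axis) for the 6 tested factors (red) and 22 other listed transcription factors (grey), with filled points where the responses of the lines differed by limma's interaction test. Eya2 and Six5 lie at the bottom left, Pax2, Pax8 and Emx2 lie well below the dashed line of equal response, and Hoxb7 is at the top right.

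Of 24 Ret, Wnt and related genes that act with these factors in duct branching, 11 passed the limit. With THZ1 in null cells 3 rose and 3 fell, where 24.6% of all tested genes rose and 51.1% fell. In heterozygous cells 0 rose and Spry1 fell, a call lost without THZ1 replicate 1, where 12.2% of all tested genes rose and 10.3% fell. Ret itself, the receptor gene downstream of Gata3, had at most 0.01 FPKM in any library. Gdnf, the Ret ligand, had 1.18 and 1.16 FPKM in null THZ1, 2.38 and 2.58 in null DMSO and 0.17 to 0.20 in the 4 heterozygous libraries, and passed the limit through null cells alone. Jag1, a Notch ligand, had 53.1 and 52.9 FPKM in null THZ1, 44.8 and 47.1 in null DMSO, 87.3 and 87.2 in heterozygous THZ1 and 95.5 and 94.0 in heterozygous DMSO libraries. Between the lines under DMSO 4 of the 11 were higher and 5 lower in null cells, where 29% of all tested genes were higher and 41% lower.

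Of 26 proximal tubule genes linked to Hnf4a, 25 were in the files and 6 passed the limit of 1 FPKM. Under DMSO 4 of the 6 were lower and 1 higher in null cells, where 41% of all tested genes were lower and 29% higher. Aqp1, a water channel, had 100.2 and 105.3 FPKM in null THZ1, 58.8 and 66.1 in null DMSO, 222.1 and 233.0 in heterozygous THZ1 and 184.7 and 195.7 in heterozygous DMSO libraries, although Hnf4a was near 0 in all of them. Ggt1 had 1.76 to 2.54 FPKM in null and 17.4 to 20.5 in heterozygous libraries, and Lrp2, the megalin gene, 4.45 to 5.14 in null and 0.45 to 0.51 in heterozygous libraries, so that Lrp2 passed the limit through null cells alone. With THZ1 in null cells 2 rose and 2 fell, where 24.6% of all tested genes rose and 51.1% fell, with Dab2 lower by -0.52 ± 0.05 (SE, limma adjusted p = 4.37e-07) and Pdzk1 by -0.60 ± 0.09 (SE, limma adjusted p = 7.5e-05).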

How the data were processed

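Poly(A) RNA of 8 libraries was measured. The authors deposited 1 FPKM value per gene and library, with 2 decimals, per the file headers. Bowtie2, DESeq2 and the build mm10 are named, per the submitters' processing notes. No counting program, annotation, version or strand setting is given in the sources used here. Symbols came from the RefSeq table of GRCm38.p6, the assembly mm10 stands for, and matched 18592 of 18631 IDs. The 8 factors, the lists and the rules were chosen with earlier results of these data known.

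The 10731 genes with a mean of at least 1 FPKM were analysed as log2(FPKM + 1), with no added scaling. Group means were fitted over the 8 libraries together with limma 3.58.1 under R 4.3.3 (4 residual degrees of freedom, prior spread following the level). p-values are two-sided, with Benjamini-Hochberg adjustment over all tested genes. A rank or permutation test of 2 against 2 libraries cannot go below p = 0.333. The fit was tested on simulated data.

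Named genes are the 8 factors, Pkd1, up to 3 called members with the smallest adjusted p per list and comparison, and 2 genes most alike to each tested factor. Some genes that this rule names are not reported here. Ret and the markers named singly were chosen after their values were seen. Depth was estimated from the steps of low FPKM values of genes with 1 annotated transcript. Alternatives were 2 other pseudocounts, 2 other filters, 3 scalings, fits on the compared groups alone, no trend, a replicate block and leaving out each library.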

Additional observations from a re-analysis of the deposited data

Results flagged for a closer look

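The THZ1 response differed between null and heterozygous cells by limma's interaction test for 4 of the 6 tested factors. It also differed for 11 named genes of the lists, each with an adjusted p of at most 0.0261. List genes were named only where called, so the 11 are not a share of their lists. Of 19 other kidney factors tested 1 was called positive and 6 negative. Of 5 paralogs 0 and 3 were, of 11 branching genes 3 and 3, and of 6 proximal tubule genes 2 and 1. Over all tested genes the test called 60.2%, 15.1% positive and 45.1% negative, so a call is not unusual here. Differences of responses (null minus heterozygous, log2) were -1.85 for Eya2, -1.07 for Pax2, -0.67 for Emx2 and -0.55 for Pax8. In both null THZ1 libraries each of these was below both null DMSO libraries. In that comparison 51.1% of all tested genes were called lower, and the share of genes separating in this way was not counted. Among the other transcription factors the differences of responses were -1.43 for Six5, -0.45 for Irx3, -0.42 for Irx2, -0.41 for Eya4 and 0.50 for Hoxb7. The call of Irx3 was lost in 4 of 17 alternatives (pseudocount 0.1, median-of-ratios scaling, and without null DMSO replicate 1 or heterozygous THZ1 replicate 2), and that of Eya4 with median-of-ratios scaling. Those of branching genes were -0.70 for Gdnf, -0.48 for Cdh6 and 0.32 for Jag1. Gdnf and Irx3 passed the limit of 1 FPKM through null cells alone, with at most 0.20 and 0.60 FPKM in heterozygous libraries. Those of proximal tubule genes were -0.55 for Dab2, 0.45 for Aqp1 and 0.47 for Apoe. The call of Apoe was lost in 5 of 17 alternatives, with no filter and without null THZ1 replicate 1, null DMSO replicate 2, heterozygous THZ1 replicate 1 or heterozygous DMSO replicate 2.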

How the results depend on the processing

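In all 18 alternatives the THZ1 response of null cells kept its call and direction for Pax2, Pax8, Emx2, Eya2 and Gata3, that of heterozygous cells for Eya2, and null minus heterozygous for Pax2, Pax8, Emx2 and Gata3 under DMSO and for these and Eya2 under THZ1. The difference of responses kept its call for Pax2, Pax8, Emx2 and Eya2 in all 17; the fit on the compared groups alone was not run for it, since it uses all groups. For THZ1 in heterozygous cells 1 factor was called, against 2 with library total scaling, 2 with the replicate block and 1 to 2 when 1 library was left out. Over all genes this comparison called 2406, against 1309 with no filter, 1153 with heterozygous DMSO replicate 1 left out, and 797 and 1048 with the first and the second THZ1 library left out. The labels tie the replicate numbers to no batch, and replicate differences correlated between groups at -0.094 to 0.139 over all tested genes. Pax2 and Pax8 were each higher in replicate 2 than in replicate 1 in every group. Whether libraries with the same number share a batch was not tested. Under the replicate block Pax2 in heterozygous cells was called (0.18, limma adjusted p = 0.0176), and the other counts of factors called were the same.

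Directions turned for small values that were not called, and once for a called value. The called value was Irx1, null minus heterozygous under THZ1, at 0.080 with median-of-ratios scaling. For Irx1 the THZ1 response in null cells was -0.028 with library totals and -0.015 to 0.126 when 1 library was left out, and that in heterozygous cells was -0.0087 with library totals and -0.062 to 0.135 when 1 library was left out. Its difference of responses was -0.020 with library totals and -0.080 to 0.118 when 1 library was left out. With median-of-ratios scaling Irx1 was called in null cells (0.28, limma adjusted p = 0.00333, alternatives 0.00333 to 0.876) and in the difference (0.25, 0.0477, alternatives 0.0477 to 0.989). Emx2 in heterozygous cells was -0.016 with library totals. The cause was not tested. Depth limits Hnf4a and Lhx1, with at most 7.1 estimated fragments in a library.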
